A study of Rorippa islandica and Rorippa pyrenaica with 24 samples.

Results

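Of the 30646 genes of *Rorippa islandica* in the count tables, 138 had counts in leaves of *R. stylosa* and not a single count in leaves of *R. islandica*. They were chosen by 2 criteria: 0 counts in all 12 *R. islandica* libraries, and a mean of at least 1 CPM (counts per 1000000 counts of the library) over the 12 *R. stylosa* libraries. These values chose the genes, so the difference between the species is a description here and was not tested. The size of the orthogroups and the coding length were not criteria. Both could still bear on the choice, because CPM are not scaled by length and shared reads are split between transcripts. The response to submergence took part in the choice, because the mean runs over 6 control and 6 submerged libraries. A gene with low counts in one treatment was included only if it was high enough in the other.

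The study compared 2 diploid plants of the Cardamineae tribe of the Brassicaceae, *R. islandica*, which tolerates long submergence, and *R. stylosa* (named *R. pyrenaica* in the sample labels), which is more sensitive. Young leaves were harvested from soil-grown plants that had been fully submerged in tap water in a day-night rhythm for 24 or 48 h, and from control plants kept in air for the same time. Each of the 8 groups of species, treatment and time point had 3 libraries of polyadenylated RNA, 24 in all, and the labels name no genotype other than the species. *R. islandica* plants were grown from seed, whereas *R. stylosa* plants were propagated vegetatively and independently for each replicate.

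Reads of both species were assigned to the transcripts of *R. islandica*, so every gene described here is annotated in the species in which it had no count. A count of 0 says only that no read of these leaves was assigned to the gene, and its reason was not tested. Related plant species differ in their gene content, because genes are duplicated, lost and silenced independently in each lineage. An orthogroup collects the genes of several species that descend from 1 gene of their common ancestor, and several genes of 1 species in an orthogroup are paralogs, which arose by duplication. Paralogs can be expressed in different tissues or respond to different stresses, and near-identical paralogs are hard to tell apart with short reads. The count tables pair the identifiers with no gene names, so no function is given for any gene, and the leaf identity of the samples could not be compared with marker genes.

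Between 24127592 and 39080005 counts were assigned per *R. stylosa* library, against 26787875 to 66692318 per *R. islandica* library. A level of 3 counts over all 12 *R. islandica* libraries would correspond to 0.00652 CPM, which is the floor used here. *R. stylosa* 48 h control replicate 1 stood apart from the other replicates of its group. Its counts differed from theirs by a chi-square per degree of freedom of 149 and 153, against at most 53.6 for every other pair of replicates. Counts at 48 h are therefore also given without it.

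In all, 1260 genes had 0 counts in *R. islandica* and at least some counts in *R. stylosa*. Most of them were barely counted, with 897 under 0.1 CPM and 225 between 0.1 and 1 CPM, and the 138 genes described here were the remainder. Among the 138 genes, 54 had a mean between 1 and 2 CPM, 46 between 2 and 5 CPM, 19 between 5 and 10 CPM and 19 at least 10 CPM. Their median was 2.49 CPM, with quartiles of 1.48 and 5.41 CPM. Counts were present in all 12 *R. stylosa* libraries for 135 of the 138 genes, and 78 reached 1 CPM in every library. Each single *R. stylosa* library held counts for 136 to 138 of them.

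**Figure D1:**
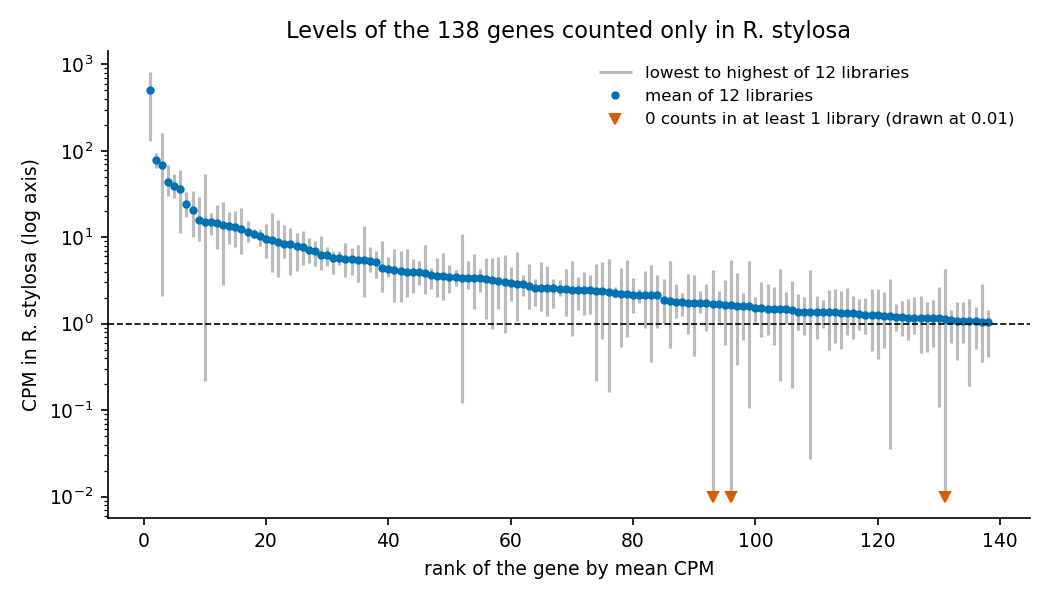
Mean CPM of each of the 138 genes over the 12 *R. stylosa* libraries (points, log axis), with the lowest and highest library (grey lines), ordered by rank. The highest gene stood at 512 CPM, the median gene at 2.49 CPM and the lowest at 1.04 CPM, and 3 genes had a library without counts.

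A single gene carried much of the signal. Roisl.0191s0445, with a coding length of 399 bases and no other gene in its orthogroup (OG0001744), had a mean of 512 CPM, which was 39.0% of the summed 1312 CPM of all 138 genes. Its level in *R. stylosa* was 78595-fold the floor of 3 counts over the *R. islandica* libraries, and that of the lowest gene 160-fold. A mean of 1 CPM, required of every gene, already lies 153-fold above this floor. These ratios therefore follow in part from the choice of the genes and are no estimate of a difference between the species. The 10 highest genes made up 65.0% of the sum. Following Roisl.0191s0445, these were Roisl.0080s0687 at 78.0 CPM, Roisl.0041s0067 at 68.6 CPM, Roisl.0213s0442 at 44.1 CPM and Roisl.0004s0335 at 39.0 CPM. The remaining 5 were Roisl.0208s0009 at 35.7 CPM, Roisl.0091s0511 at 24.2 CPM, Roisl.0006s0486 at 20.5 CPM, Roisl.0005s0346 at 15.8 CPM and Roisl.0055s0024 at 15.1 CPM. Of these 10 genes, 5 were alone in their orthogroup, and the only paralogs of Roisl.0080s0687 and Roisl.0213s0442 had no more than 0.0310 and 0.00227 CPM in *R. stylosa*. Per kilobase of coding length, the median level of the 138 genes was 4.02 CPM, against 14.3 CPM for all 17354 genes with at least 1 CPM in *R. stylosa*.

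The threshold on the level cut through a continuum. Just inside it were Roisl.0214s0002 at 1.04 CPM, Roisl.0074s0864 at 1.06 CPM and Roisl.0200s0033 at 1.07 CPM, and just outside were Roisl.0083s0027 at 0.996 CPM, Roisl.0006s0240 at 0.989 CPM and Roisl.0013s0099 at 0.976 CPM. The criterion of 0 counts also left out genes with strong counts in *R. stylosa*. Roisl.0213s0584, at 51.5 CPM in *R. stylosa*, Roisl.0011s0031, at 22.0 CPM, and Roisl.0029s0014, at 21.6 CPM, each had 1 count in 1 *R. islandica* library. Altogether 97 genes with at least 1 CPM in *R. stylosa* had more than 0 and up to 3 counts in *R. islandica*.

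The 138 genes came more often from duplicated families than the other genes counted in *R. stylosa*. Only 48 of them (34.8%) were the single *R. islandica* gene of their orthogroup, compared with 83.5% of the 17354 genes with at least 1 CPM in *R. stylosa* and 68.8% of all 30646 genes. Orthogroups of 2 to 9 genes held 76 (55.1%), against 16.1% and 25.4%, and orthogroups of 10 or more genes held 14 (10.1%), against 0.426% and 5.80%. The median orthogroup had 2 genes for the 138 genes and 1 gene in both other sets. At a similar level, among 3352 genes counted in both species whose mean CPM lay between the quartiles of the 138 genes, 78.9% were alone in their orthogroup. The largest orthogroup was that of Roisl.0111s0033 (OG0000096), with 26 genes.

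The authors mark a part of the orthogroups as universal, a label whose definition is not given in the sources used here, and which the study used to combine these species with earlier ones. Universal orthogroups held 68 of the 138 genes (49.3%), against 95.9% of the genes with at least 1 CPM in *R. stylosa* and 70.1% of all genes. The converse set, 581 genes with 0 counts in all *R. stylosa* libraries and at least 1 CPM in *R. islandica*, was similar in the universal share, at 40.3%, but not in orthogroup size, with 65.4% alone in their orthogroup. These differences in composition are given as counts and were not tested.

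**Figure D2:**
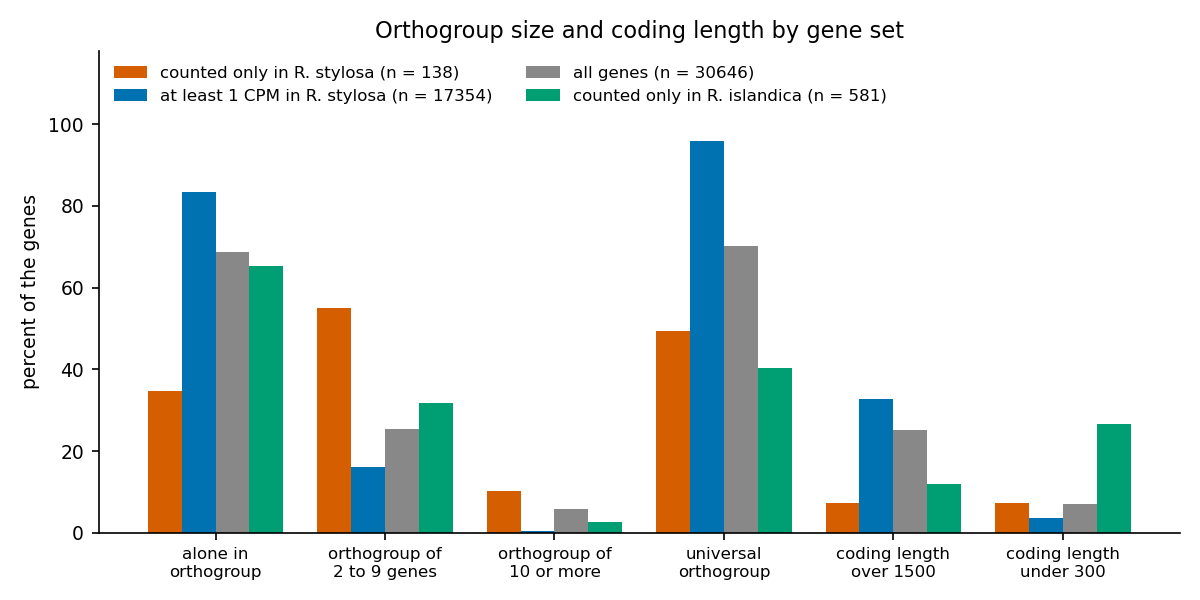
Share of genes (percent) by orthogroup size, universal orthogroup and coding length in 4 sets: the 138 genes counted only in *R. stylosa*, the 17354 genes with at least 1 CPM in *R. stylosa*, all 30646 genes and the 581 genes counted only in *R. islandica*. The 138 genes had the lowest share alone in their orthogroup (34.8%) and the highest share in orthogroups of 2 to 9 genes (55.1%).

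Coding sequences were shorter. The median coding length of the 138 genes was 853.5 bases, compared with 1155 bases for the genes with at least 1 CPM in *R. stylosa* and 990 bases for all genes. Long coding sequences were scarce, with 10 genes (7.25%) over 1500 bases against 32.6% and 25.1%. Under 300 bases there were 10 genes (7.25%), against 3.72% and 7.09%. Of the genes counted only in *R. islandica*, 26.5% were that short, at a median of 504 bases. Long coding sequences were few in that set as well, with 11.9% over 1500 bases. The 3352 genes of similar level counted in both species had a median of 1011 bases. Of these, 6.95% were under 300 bases, close to the share of the 138 genes, and 26.0% were over 1500 bases. The shortest was Roisl.0074s0526 with 147 bases and the longest Roisl.0005s0361 with 3453 bases. Genes alone in their orthogroup had a median of 733.5 bases and genes that shared one a median of 868.5 bases. None of the 138 genes had more than 1 annotated isoform, compared with 7.78% of the genes with at least 1 CPM in *R. stylosa*.

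The 138 genes belonged to 126 orthogroups. For 68 genes, including the 48 without a paralog, no gene of the orthogroup had any count in *R. islandica*. Another gene of the orthogroup had at least 1 CPM in *R. islandica* for 29 genes (21.0%). Among the 90 genes that shared an orthogroup this was 32.2%, compared with 71.8% of the 2867 genes with at least 1 CPM in *R. stylosa* that shared one. In *R. stylosa* itself, 41 of the 138 genes had a paralog at 1 CPM or more, and the 90 genes that shared an orthogroup contributed a median of 49.1% of its CPM.

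In 4 orthogroups, a gene counted only in *R. stylosa* stood beside a gene counted only in *R. islandica*. The separation was complete in OG0010974, where each of the 3 genes was counted in 1 species only. Roisl.0017s0481, with a coding length of 714 bases, had a mean of 3.98 CPM in *R. stylosa*, between 2.26 and 2.99 CPM in the 6 controls and between 4.51 and 5.65 CPM in the 6 submerged libraries. Both other genes, Roisl.0002s0228 with 351 bases and Roisl.0179s0076 with 375 bases, had no count in *R. stylosa* and means of 2.16 and 2.75 CPM in *R. islandica*. In *R. stylosa*, Roisl.0017s0481 was higher in every submerged library than in every control. Its log2 fold changes of 0.69 ± 0.14 (SE) at 24 h and 0.70 ± 0.14 at 48 h did not pass the test described below (edgeR, adjusted p = 1 at both).

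The other 3 such orthogroups were mixed. In OG0000042, Roisl.0005s0346 (1476 bases) had 15.8 CPM in *R. stylosa*, where Roisl.0005s0338 and Roisl.0005s0350 had 1.35 and 3.26 CPM. In *R. islandica* these 2 genes had 22.5 and 38.8 CPM, and Roisl.0005s0337, absent from the *R. stylosa* counts, 3.66 CPM. Roisl.0046s0004 in OG0000330 made up 90.6% of the CPM of its orthogroup in *R. stylosa*, with 14.9 CPM. The same orthogroup was represented in *R. islandica* by Roisl.0030s0062 at 4.70 CPM, Roisl.0030s0024 at 3.68 CPM and Roisl.0030s0031 at 2.67 CPM, of which the last was not counted in *R. stylosa*. In OG0000366 (11 genes), Roisl.0057s0027 had 2.19 CPM in *R. stylosa* and Roisl.0053s0323 had 1.55 CPM in *R. islandica*. Neither of them was counted in the other species. Roisl.0057s0030 of the same orthogroup stood higher in *R. stylosa*, at 3.04 CPM, and at 0.0162 CPM in *R. islandica*. The *R. stylosa* counts of Roisl.0057s0027 and Roisl.0057s0030 were not whole.

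**Figure D3:**
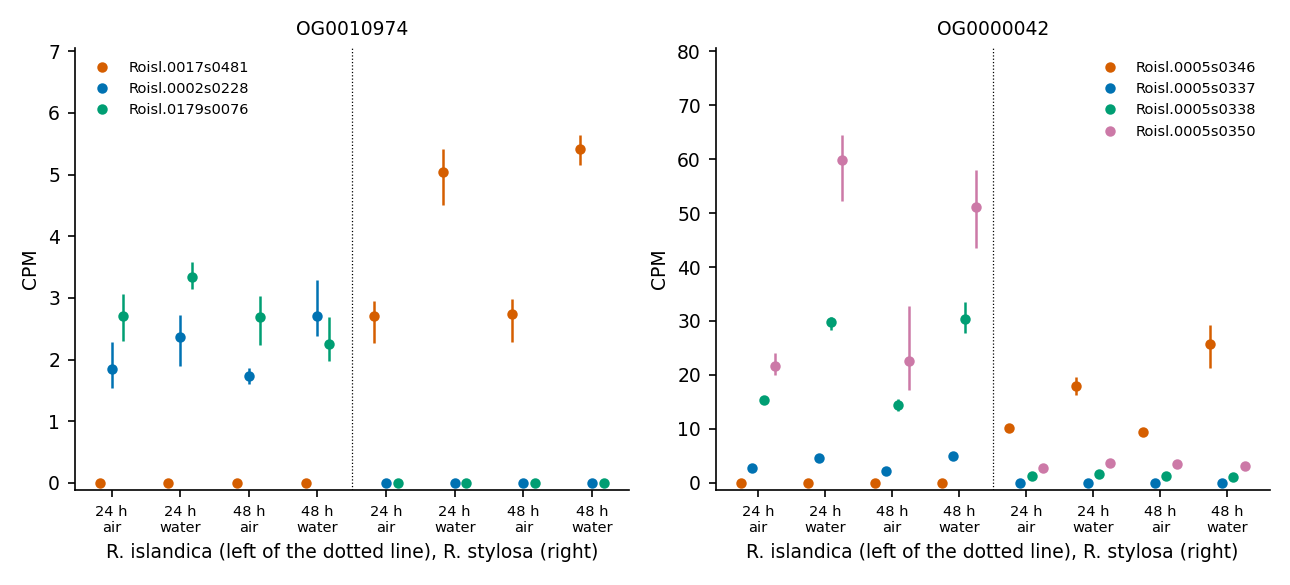
Mean CPM (points) with the lowest and highest of 3 libraries (lines) for every gene of 2 orthogroups, in control (air) and submerged (water) groups of *R. islandica* on the left and *R. stylosa* on the right of the dotted line. In OG0010974 each gene was at 0 in 1 species, and in OG0000042 the gene counted only in *R. stylosa*, Roisl.0005s0346, was the highest of its orthogroup there.

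Roisl.0004s0335 illustrates a paralog pair at equal level. Its only paralog in OG0002621, Roisl.0210s0812, has the same coding length of 411 bases. In *R. stylosa* the pair stood at 39.0 and 38.1 CPM, both with whole counts in all libraries, and in *R. islandica* Roisl.0210s0812 alone was counted, at 88.9 CPM.

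Several genes of 1 orthogroup were in places counted only in *R. stylosa* together. In all, 10 orthogroups held at least 2 of the 138 genes, which made up 22 genes. In OG0036613 this applied to the whole orthogroup of 3 genes, whose identifiers are consecutive, Roisl.0046s0438, Roisl.0046s0439 and Roisl.0046s0440. Consecutive identifiers, which by the usual convention name neighbouring genes although coordinates were not used here, also joined Roisl.0020s0114 and Roisl.0020s0115 of OG0036692. They further joined pairs of different orthogroups, Roisl.0188s0045 with Roisl.0188s0046, Roisl.0209s0274 with Roisl.0209s0275 and Roisl.0210s2048 with Roisl.0210s2049. In total 11 genes lay in such pairs or runs. The rest were scattered: the identifiers carried 52 of the 139 first numbers in the tables, and no first number had more than 9 of the 138 genes.

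Shared reads limit the precision for a part of these genes. Where a read fits several transcripts, kallisto splits it between them, which leaves counts that are not whole. Such counts, more than 0.001 from a whole number in at least 1 *R. stylosa* library, occurred in 45 of the 138 genes (32.6%), against 15.7% of the genes with at least 1 CPM in *R. stylosa*. Among genes that shared an orthogroup the order was the opposite, with 43.3% of the 90 genes against 55.1%. Of these 45 genes, 39 shared an orthogroup and 6 were alone in theirs. Their values are estimates that depend on the other transcripts that the reads fit. The calls among the other 93 genes are given separately below.

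Submerged leaves were compared with controls at each harvest. Tests were run with edgeR across all 19886 genes with sufficient counts in *R. stylosa*, against a log2 fold change of 1, and genes were called at p under 0.05 after Benjamini-Hochberg adjustment. After 24 h, 8 of the 138 genes rose and 8 fell (5.8% each), where 7.77% of all genes tested rose and 4.92% fell. After 48 h, 15 rose (10.9%) and 12 fell (8.7%), where 10.5% of all genes tested rose and 9.26% fell. In the bulk leaf samples, a change in RNA per cell and a change in the share of a cell type cannot be told apart. The same 15 genes passed at both time points, 8 upward and 7 downward, with 1 more at 24 h and 12 more at 48 h, and no gene passed in opposite directions.

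Many of these calls were tied to the choice of the genes. A mean of at least 1 CPM was reached in both treatments by 99 of the 138 genes, whereas 30 were below it in the controls and reached it only through the submerged libraries, and 9 were below it under water and reached it only through the controls. A gene that passed through 1 treatment alone had to differ between the treatments. These genes made up 6 of the 8 rises and 6 of the 8 falls at 24 h, and 8 of the 15 rises and 6 of the 12 falls at 48 h. Among the 99 genes, 2 rose and 2 fell at 24 h, and 7 rose and 6 fell at 48 h. Of all genes tested with a mean of at least 1 CPM over the 12 libraries, 7.68% rose and 4.92% fell at 24 h. At 48 h, 10.1% of them rose and 9.02% fell. A level of 1 CPM in both treatments was not required of those genes, and it leaves out genes with large changes, so the 99 genes are no neutral remainder. The counts and medians of the 138 genes are therefore a description of the chosen genes and no evidence on how genes of this kind respond.

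These counts depended on single libraries at both time points, and the ranges with each library left out are given in the last section. At 24 h, 5 genes rose without control replicate 2, and 5 fell without control replicate 3, submergence replicate 1 or submergence replicate 2. Without the deviating 48 h control replicate 1, 12 genes rose and 10 fell at 48 h. Among the 93 genes with whole counts, 7 rose and 4 fell at 24 h, and 13 rose and 6 fell at 48 h. The shares among all genes with whole counts are not given, so these counts only show how the calls divide.

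The same holds for the size of the responses. The median log2 fold change was 0.22 at 24 h and 0.42 at 48 h, beside 0.01 over all genes tested at both time points. Values above 0 were found in 87 genes at 24 h and 91 genes at 48 h. Against no change instead of a threshold, 44 genes rose and 20 fell at 24 h, where 28.9% of all genes tested rose and 27.7% fell. At 48 h, 54 rose and 26 fell, where 34% rose and 32.7% fell. Scaling by library totals in place of TMM shifted the median of all genes to 0.23 and 0.30 and that of the 138 genes to 0.44 and 0.70.

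In CPM, values in single libraries are scaled by library totals, the scale on which the median of all genes was shifted upward by 0.23 and 0.30. All 3 submerged libraries were above all 3 controls for 67 of the 138 genes at 24 h, against 43.6% of the genes with at least 1 CPM in *R. stylosa*, and below them for 19, against 21.2%. At 48 h they were above for 72 genes, against 48.9%, and below for 21, against 25.2%. The choice of the genes bears on these counts as well.

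**Figure D4:**
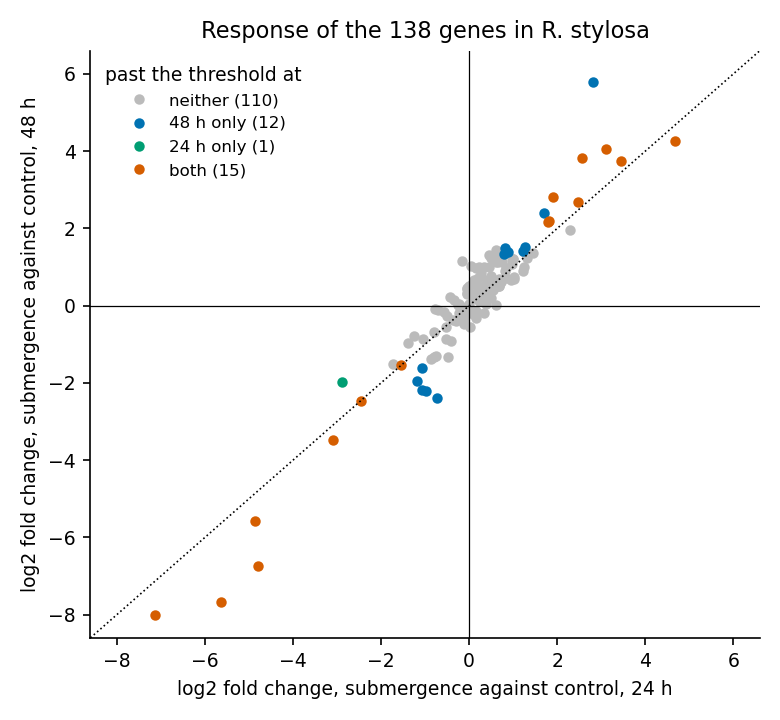
Log2 fold change of submergence against control in *R. stylosa* at 24 h (x axis) and 48 h (y axis) for the 138 genes, coloured by the time points at which they passed the test. Genes called at both time points (15) lay near or beyond the dotted line of equal change, and 110 genes passed at neither.

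Genes that fell strongly were led by 2 with almost no counts under water, which reached a mean of 1 CPM only through the controls. Roisl.0019s0039, with a coding length of 159 bases, had 3.45, 2.25 and 4.23 CPM in the 24 h controls and 3.80, 2.59 and 3.89 CPM in the 48 h controls. Under water it had 2 counts at 24 h and 1 count at 48 h over 3 libraries each, against 341 and 389 counts in the controls. By these counts the level was 145-fold lower at 24 h (exact 95% interval 40.0 to 1206) and 283-fold lower at 48 h (50.4 to 11196), where the intervals cover counting error only. edgeR gave adjusted p values of 4.67e-06 and 2.30e-06. The fitted log2 fold change of -7.12 at 24 h was -6.43 without submergence replicate 2, and that of -8.00 at 48 h was -9.91 without submergence replicate 3.

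Roisl.0032s0031 behaved alike but its controls scattered. They stood at 2.02, 2.32 and 0.818 CPM at 24 h and at 4.34, 3.15 and 0.793 CPM at 48 h, with replicate 3 the lowest at both. Under water 3 counts remained at 24 h and 1 at 48 h. The level was 47.5-fold lower at 24 h (exact 95% interval 16.0 to 233) and 225-fold lower at 48 h (40.0 to 8899), with adjusted p values of 0.00162 and 0.000202 in edgeR. Fitted log2 fold changes were -5.64 and -7.68, and they became -6.59 when submergence replicate 3 was left out at 24 h and -9.63 when submergence replicate 2 was left out at 48 h. Both genes were outside the universal orthogroups and shared their orthogroup with 1 other gene.

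The third highest of all 138 genes, Roisl.0041s0067, fell to a small fraction of its level. This gene of 279 bases is alone in OG0042116, outside the universal orthogroups. Its level was 122, 107 and 161 CPM in the 24 h controls and 5.18, 3.89 and 6.54 CPM after 24 h under water. At 48 h it was 121, 124 and 162 CPM in controls and 2.92, 5.48 and 2.11 CPM under water. The groups were far apart, with log2 fold changes of -4.87 ± 0.35 (SE, adjusted p = 2.23e-06) and -5.57 ± 0.37 (adjusted p = 6.77e-07) in edgeR. It remained called under each of the 18 alternatives that were run.

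Roisl.0191s0445, the highest gene, fell at 48 h. At 24 h its level was 753, 784 and 598 CPM in controls and 418, 231 and 591 CPM under water, so the nearest libraries of both groups almost met. At 48 h it was 808, 573 and 818 CPM in controls and 133, 312 and 131 CPM under water. The log2 fold change of -0.99 ± 0.39 at 24 h did not pass the test (edgeR, adjusted p = 1), whereas that of -2.20 ± 0.40 at 48 h passed (adjusted p = 0.00876). The 48 h call was lost in DESeq2 (adjusted p = 0.0669), and without 48 h submergence replicate 2 the value was -2.81.

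**Figure D5:**
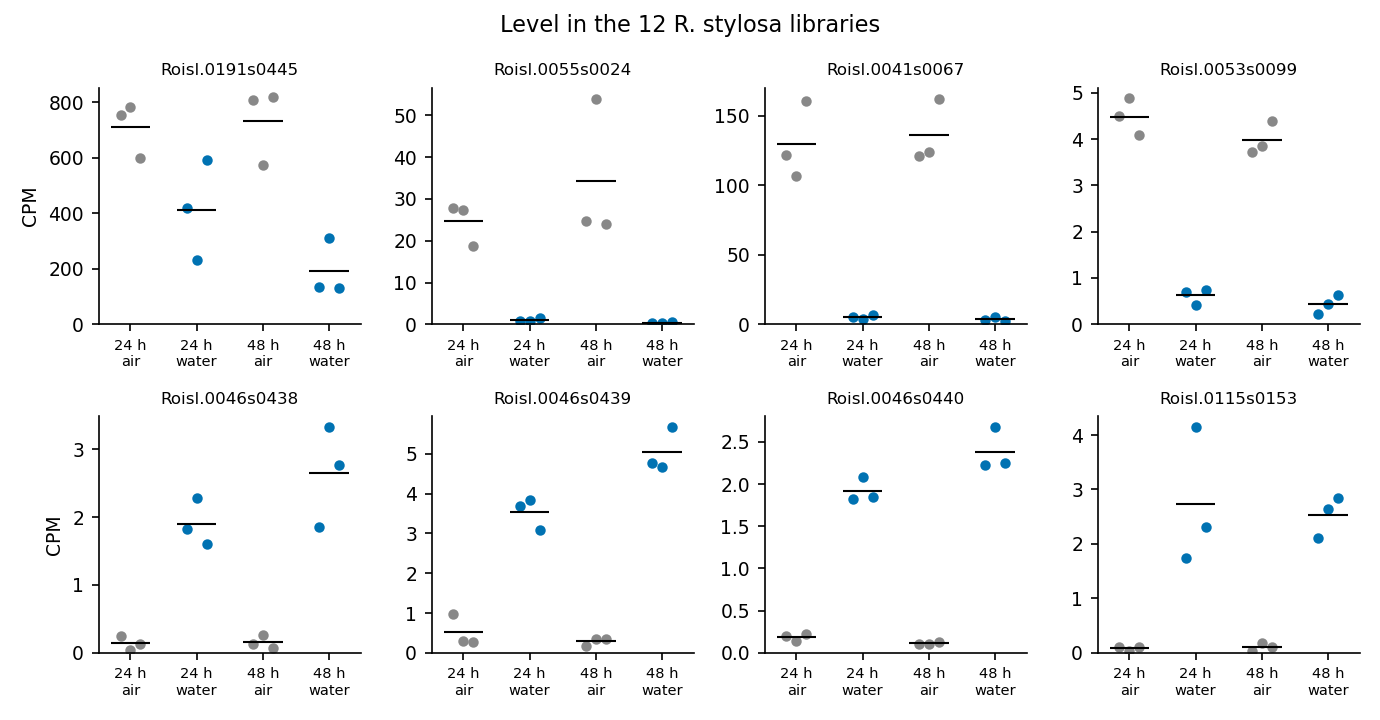
CPM in each of the 12 *R. stylosa* libraries (points) for 8 of the 138 genes in air (grey) and under water (blue) at 24 and 48 h, with the mean of 3 libraries (black line). The upper 4 genes were lower under water, with Roisl.0191s0445 changing least. The lower 4, including the 3 genes of OG0036613, were low in air, with Roisl.0046s0439 at up to 0.982 CPM.

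Another pair of genes with strong falls, Roisl.0055s0024 and Roisl.0053s0099, belonged to orthogroups with paralogs in both species and likewise reached 1 CPM only through the controls. Roisl.0053s0099, of 615 bases, stood at 4.49, 4.88 and 4.09 CPM in the 24 h controls and 0.705, 0.417 and 0.744 CPM under water. At 48 h it stood at 3.72, 3.85 and 4.40 CPM and at 0.219, 0.446 and 0.627 CPM. Control and submerged libraries were clearly separated, with log2 fold changes of -3.08 ± 0.29 (edgeR, adjusted p = 5.62e-05) and -3.48 ± 0.30 (adjusted p = 1.52e-05). Its paralog in OG0005019, Roisl.0046s0768, stood far higher in *R. stylosa*, at 61.1 CPM, and fell as well, by 3.24 and 3.65 on the log2 scale (adjusted p = 1.56e-06 and 4.05e-07). In *R. islandica* the paralog, at 89.1 CPM, had log2 fold changes of -0.78 and -0.73 that did not pass (adjusted p = 1 at both), and the difference between the species was not tested.

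Roisl.0055s0024, of 1431 bases, had counts that were not whole and is part of the 5 genes of OG0001686. It stood at 27.9, 27.4 and 18.8 CPM in the 24 h controls and at 0.829, 0.779 and 1.48 CPM under water. The 48 h controls had 24.7, 54.0 and 24.0 CPM and the submerged libraries 0.219, 0.243 and 0.660 CPM. Log2 fold changes were -4.80 ± 0.39 (edgeR, adjusted p = 6.65e-06) and -6.74 ± 0.45 (adjusted p = 6.82e-07), the second -7.45 without 48 h submergence replicate 3. Its paralogs Roisl.0210s1965 and Roisl.0210s1966 fell at 48 h in both species (adjusted p = 1.16e-06 and 7.28e-07 in *R. stylosa*, 6.21e-06 and 9.36e-06 in *R. islandica*). A further paralog, Roisl.0004s0068, fell by 7.60 in *R. stylosa* at 48 h (adjusted p = 2.80e-06) but rose by 2.36 in *R. islandica* (adjusted p = 0.00928). The difference was not tested, and as reads are shared among these genes their values are uncertain.

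The strongest rises included a whole orthogroup. All 3 genes of OG0036613, outside the universal orthogroups and with whole counts, rose at both time points from levels near 0 in air. They reached a mean of 1 CPM only through the submerged libraries, as did Roisl.0115s0153, Roisl.0074s0364 and Roisl.0209s0042. Roisl.0046s0440 (507 bases) had 0.196, 0.143 and 0.218 CPM in the 24 h controls and 1.82, 2.09 and 1.84 CPM under water. At 48 h it had 0.108, 0.108 and 0.128 CPM in controls and 2.22, 2.68 and 2.25 CPM under water. The groups were narrow and far apart, and the log2 fold changes were 3.11 ± 0.26 (edgeR, adjusted p = 2.33e-05) and 4.05 ± 0.27 (adjusted p = 1.47e-06).

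Its neighbours by identifier moved in the same way. Roisl.0046s0438 (534 bases) rose from 0.253, 0.0356 and 0.136 CPM to 1.82, 2.28 and 1.61 CPM at 24 h and from 0.135, 0.269 and 0.0768 CPM to 1.86, 3.33 and 2.77 CPM at 48 h. Its log2 fold changes were 3.45 ± 0.48 (edgeR, adjusted p = 0.000915) and 3.75 ± 0.46 (adjusted p = 0.000205), the first 4.06 without 24 h control replicate 1. Roisl.0046s0439 (396 bases) rose from 0.982, 0.285 and 0.273 CPM to 3.69, 3.84 and 3.10 CPM at 24 h and from 0.162, 0.350 and 0.358 CPM to 4.78, 4.67 and 5.68 CPM at 48 h. Here the 24 h control replicate 1 was the highest control of both genes, and without it the 24 h value of Roisl.0046s0439 was 3.38 instead of 2.56 ± 0.38 (adjusted p = 0.00229), beside 3.81 ± 0.40 at 48 h (adjusted p = 5.03e-05).

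Roisl.0115s0153, alone in the universal orthogroup OG0022205 and 1515 bases long, showed the largest rise at 24 h. It had 0.112, 0.0356 and 0.109 CPM in the 24 h controls and 1.74, 4.14 and 2.31 CPM under water. At 48 h it had 0.0270, 0.189 and 0.102 CPM in controls and 2.12, 2.64 and 2.84 CPM under water. Every submerged library was far above every control, and the log2 fold changes were 4.68 ± 0.52 (edgeR, adjusted p = 8.84e-05) and 4.25 ± 0.49 (adjusted p = 0.000106). Without 48 h control replicate 2 the second was 4.89.

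The largest rise at 48 h, that of Roisl.0074s0364, passed at this time point only. This gene of 1038 bases, alone in OG0048787, had 0.645, 0 and 0.0545 CPM in the 24 h controls and 0.953, 2.70 and 2.23 CPM under water. The 48 h controls had 0.0270, 0.162 and 0 CPM and the submerged libraries 2.15, 5.52 and 5.38 CPM. Although the groups did not overlap at 24 h, its log2 fold change of 2.82 ± 0.84 did not pass (edgeR, adjusted p = 0.0959), whereas that of 5.78 ± 1.0 at 48 h passed (adjusted p = 0.00142). The latter was 7.72 without 48 h control replicate 2.

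Roisl.0209s0042, a gene of 306 bases alone in its orthogroup, rose less stably. It had 0.533, 0.107 and 0.709 CPM in the 24 h controls and 1.66, 5.37 and 2.0 CPM under water, with submergence replicate 2 well above the others. The log2 fold change of 2.48 ± 0.59 (edgeR, adjusted p = 0.0394) was 1.76 without that library and then did not pass, nor did it pass in DESeq2 or without 24 h control replicate 1 or 2, 48 h control replicate 2 or 48 h submergence replicate 3. At 48 h the value was 2.68 ± 0.62 (adjusted p = 0.0200), lost without control replicate 1, control replicate 2 or submergence replicate 2.

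Of the 10 highest genes, the 7 other than Roisl.0191s0445, Roisl.0041s0067 and Roisl.0055s0024 did not pass the test. Roisl.0208s0009 came to 1.27 ± 0.28 and Roisl.0006s0486 to 1.18 ± 0.10 on the log2 scale at 48 h, with adjusted p values of 0.232 and 0.0547 in edgeR. Roisl.0006s0486 had 9.97, 12.8 and 12.1 CPM in the 48 h controls and 32.8, 29.8 and 34.0 CPM under water, with wide distance between the groups. Roisl.0080s0687 was level throughout, at 64.2 to 94.4 CPM in all 12 libraries with overlap of the groups at both time points. The other 4 had log2 fold changes between 0.04 and 1.14.

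Genes that shared an orthogroup were not always called alike, and the differences between them were not tested. In OG0002745, Roisl.0209s0327 and Roisl.0209s0330 fell at 48 h, by 2.38 and 2.18 on the log2 scale (edgeR, adjusted p = 0.0315 and 0.0146), both with counts that were not whole. Each of these calls was lost without 48 h control replicate 3, submergence replicate 1 or submergence replicate 2, and that of Roisl.0209s0327 also without control replicate 1 or submergence replicate 3, in DESeq2 and with library totals in place of TMM. In OG0000097 (19 genes), Roisl.0027s0111 fell at both time points, by 2.45 and 2.46 (adjusted p = 0.0278 and 0.0196). Roisl.0189s0072 fell at 24 h, by 2.88 (edgeR, adjusted p = 0.0270), while Roisl.0024s0027 had -0.79 and -0.68 without passing. All 3 genes had counts that were not whole, so their values depend on how shared reads were split. Both genes that fell reached a mean of 1 CPM only through the controls, whereas Roisl.0024s0027 reached it in both treatments. Control replicate 3 was the highest control of all 3 genes at both time points, and without it the values of Roisl.0027s0111 were -1.79 and -1.81 and no longer passed. The 24 h call of Roisl.0189s0072 was also lost without control replicate 3 and without submergence replicate 1 or 2, and its value without submergence replicate 3 was -3.69. That of Roisl.0027s0111 was lost in DESeq2 and without any one of the 24 h submergence replicates, and at 48 h without submergence replicate 1 or 2.

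In OG0000016 (10 genes), Roisl.0013s0173 rose at 48 h, with 1.81, 2.21 and 2.20 CPM in controls and 7.40, 6.49 and 6.47 CPM under water. Its log2 fold change was 1.42 ± 0.14 (edgeR, adjusted p = 0.00741), and the call was lost in DESeq2 (adjusted p = 0.0945). Roisl.0082s0083 of the same orthogroup had -1.38 and -0.97, which did not pass, with the submerged libraries below the controls at both time points. The genes of the other 6 orthogroups with at least 2 of the 138 genes had log2 fold changes between -0.38 and 1.39, and none passed.

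The responses were also counted within and outside the universal orthogroups. At 24 h, 5 of the 68 genes in universal orthogroups rose and 2 fell, with a median log2 fold change of 0.21, and 3 of the 70 others rose and 6 fell, with a median of 0.22. At 48 h, 7 of the 68 genes in universal orthogroups rose and 6 fell, with a median log2 fold change of 0.26, and 8 of the 70 others rose and 6 fell, with a median of 0.50. Among the 48 genes alone in their orthogroup 6 rose and 3 fell at 48 h, and among the 90 others 9 rose and 9 fell. Of all genes tested, in whatever class, 7.77% rose and 4.92% fell at 24 h, and 10.5% rose and 9.26% fell at 48 h. Shares among all genes of the same class are not given, so these counts do not show how such a class responds. The difference between these classes was not tested. The shortest gene, Roisl.0074s0526, rose by 1.33 at 48 h (edgeR, adjusted p = 0.0470), which 12 of 18 alternatives did not keep.

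No further change from 24 to 48 h passed the test. In edgeR, 0 of the 138 genes, and 0 of all 19886 genes tested (0%), passed in submerged leaves, in controls or for the difference between the responses at 48 and 24 h, and DESeq2 called 0 of the 138 genes. These tests had no replicate block, which is given below as an alternative. At an unadjusted p under 0.05 against no change there were 18 genes (13.0%) in submerged leaves, against 19.7% of all genes tested. There was 1 gene (0.725%) in controls, against 1.36%, and 12 (8.70%) for the difference of the responses, against 13.5%. Against no change, Roisl.0005s0346 alone had an adjusted p under 0.05 in submerged leaves (0.0387, log2 fold change 0.50), where 0.297% of all genes tested rose and 0.714% fell. It stood at 17.8, 19.6 and 16.3 CPM at 24 h and at 26.4, 21.4 and 29.2 CPM at 48 h under water, without overlap. Hence the 12 genes called at 48 h only are not shown to differ between the time points.

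The 138 genes varied between replicates like other genes of their level. The median biological coefficient of variation in edgeR was 0.183, compared with 0.186 for the genes between the quartiles of their CPM and 0.138 for all genes tested. In 16 of the 138 genes (11.6%) the same replicate number was the highest or the lowest in all 4 groups, against 11.4% of the genes with at least 1 CPM in *R. stylosa*. The clearest was Roisl.0214s0002, the lowest of the 138 genes, where replicate 3 was the lowest at both time points and in both treatments, at most 0.693 CPM against at least 0.974 CPM in the others. No gene had 0 counts in all 4 libraries of a replicate number.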

How the data were processed

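The authors checked the reads of both species with FastQC and assigned them with kallisto to the *R. islandica* transcriptome (assembly v1, annotation v1.1), and deposited the estimated counts (expected counts) of 32703 transcripts per library, without normalization, beside orthogroup and coding length. Every length is a multiple of 3. Column names carry the species, treatment, a Roman numeral, read as the replicate, and a 1 or a 2, read as the harvests at 24 and 48 h.

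Isoforms were summed to 30646 genes. CPM were computed from unrounded sums and column totals. The sums were rounded for tests in edgeR 4.0.16 (R 4.3.3): filterByExpr, TMM, glmQLFit and glmTreat with a log2 threshold of 1, in a model of the 4 *R. stylosa* groups, with Benjamini-Hochberg adjustment over all genes tested. Standard errors were derived from the quasi-likelihood F statistic against no change. Paralogs in *R. islandica* were tested likewise in a model of its 4 groups. The script was tested on simulated data. DESeq2 1.42.0, its size factors, no filter, other thresholds, a replicate block, 6 libraries per comparison and each library left out were alternatives, and column totals in place of TMM were added after seeing the data. No replicates were duplicates (chi-square per degree of freedom of at least 11.4). *R. stylosa* controls of the same number deviated together at 24 and 48 h (correlations of 0.377, 0.193 and 0.570), which met the criterion for pairing between harvests. The main tests nevertheless had no replicate block, which was run only as an alternative. The study states that plants were propagated independently for each replicate. Submerged libraries (0.402, 0.100 and -0.0326) did not meet this criterion of more than 0.1 in every pair.

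Named genes were the 10 highest, the 5 largest rises and falls per time point, the extremes of length, level and orthogroup, and those sharing an orthogroup or consecutive identifiers with another of the 138 genes. The genes and lists were chosen with earlier results of these data known. The study calls its replicates biological. Exact intervals cover counting error only.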

Additional observations from a re-analysis of the deposited data

How the results depend on the processing

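The number of genes counted only in *R. stylosa* was 138 after rounding and with TMM, 235 with up to 3 counts allowed in *R. islandica*, 84 at a mean of 2 CPM, 78 with 1 CPM in every library, and 137 to 150 with 1 library left out. With 1 library left out, 5 to 9 genes rose and 5 to 9 fell at 24 h, 12 to 15 rose and 8 to 13 fell at 48 h, and the medians were 0.16 to 0.26 and 0.36 to 0.44. DESeq2 called 5 rises at 24 h. With the fold applied after a test against no change, 20 rose and 15 fell at 24 h and 31 rose at 48 h. Against no change, 44 and 20 did at 24 h, 54 and 26 at 48 h, and 1 gene was higher at 48 than at 24 h under water. Among genes with whole counts, 4 fell at 24 h and 6 at 48 h, as fewer genes were counted. Column totals gave medians of 0.44 and 0.70. With 1 count sufficing, 70 genes instead of 29 had a paralog counted in *R. islandica*. The causes of the other changes were not tested.

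Control and submerged libraries of the same number did not meet the criterion for pairing: their deviations correlated at 0.0513, -0.185 and 0.157 at 24 h and 0.132, 0.0440 and 0.0268 at 48 h. With the replicate block, 8 rose and 8 fell at 24 h and 15 and 12 at 48 h, with medians of 0.20 and 0.39. From 24 to 48 h the block left 0 of the 138 genes and 0 of all 19886 genes past the log2 threshold in controls, in submerged leaves and for the difference of the responses. Against no change it gave 0 of the 138 genes in controls, 2 instead of 1 under water and 0 for the difference. At an unadjusted p under 0.05 against no change, the block gave 22 genes (15.9%) under water, against 22% of all genes tested. There were 3 genes (2.17%) in controls, against 1.72%, and 16 (11.6%) for the difference, against 15.4%. Of the 43 calls of a gene at a time point, 26 were kept under all 18 alternatives and none changed sign. Depth limits the lowest genes most, such as Roisl.0214s0002 with 396 counts over the 12 libraries.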
